A study of Mus musculus with 16 samples.

Results

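The genes described here are the early growth response genes Egr1 and Egr2, the immediate early response genes Ier2, Ier3 and Ier5, the antiproliferative genes Btg1 and Btg2, and the ZFP36 family genes Zfp36, Zfp36l1 and Zfp36l2. They were chosen by symbol, and all 10 were found among the 27998 genes counted in single-cell RNA sequencing of lineage-negative mouse bone marrow. The samples came from 16 C57BL/6 mice aged 6 to 12 weeks by the labels, in 4 groups of 4. WT mice are labelled Tet2fl/fl with no Cre named, and Tet2-KO mice are labelled Vav-Cre-Tet2-/-, so that Cre was named only in the mice that lost Tet2 and the effects of either cannot be told apart. Vav-Cre acts in the whole blood lineage, so the loss of Tet2 was not limited to 1 cell class. For 5 weeks, mice of each genotype received either vehicle or IL1β, injected intraperitoneally at a dose of 500 ng a mouse each day. Marrow of 2 mice of a group, marked with hashtag antibodies, was pooled in each of 8 libraries. One library of each group held mice 1 and 2, and the other held mice 3 and 4.

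Immediate early genes are transcribed within minutes of a signal from transcription factors that the cell already holds, and their messenger RNAs are short-lived. EGR proteins are zinc finger transcription factors, and EGR1 is known for holding hematopoietic stem cells (HSCs) in quiescence and in their niche. IER proteins are small proteins of stress and growth factor responses, and Ier3 is a known target of NF-κB. BTG1 and BTG2 slow cell division and bring the CCR4-NOT deadenylase to messenger RNAs. The ZFP36 proteins bind AU-rich elements in the 3′ ends of messenger RNAs, such as that of Tnf, and speed their decay, and Zfp36l2 is needed for blood formation in mice.

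The libraries held 11555 to 19573 barcodes and 56010493 to 99197115 unique molecular identifiers (UMIs), which count RNA molecules, and at most 0.718% of a library's barcodes also occurred in another library. After filters on quality, 8569 to 14573 cells of a library remained, of which 14.3% to 49.8% of a library had no hashtag call and entered no value per mouse. The library of a cell was certain, but its mouse was not. In the library of WT mice 1 and 2 with vehicle, the calls used here gave 4159 cells to mouse 1 and 698 to mouse 2, whereas another rule gave 73 and 4204. Values are therefore also given with the libraries of mice 1 and 2 and of mice 3 and 4 apart. Tet2 was counted at 27.3 to 53.1 CPM (UMIs of a gene scaled to a common total of UMIs) in WT libraries and at 30.9 to 66.98 CPM in Tet2-KO libraries, but counts from the 3′ end lie outside the deleted part and check nothing. Cells were assigned to 18 classes by marker genes, none of which is among the 10 genes, and a class is named only by its likeness to a cell type. The HSC-like cells, which held UMIs of all 9 HSC markers in every group, numbered 1360 over 16 mice, with 12 to 158 cells and 29133 to 587317 UMIs a mouse. Of the 1792 gated cells, with or without a hashtag call, 16.2% had a score within 0.1 of the gate's limit or of their score for another class. No cluster of cells was named HSC by the same markers. WT mouse 2 with vehicle had the fewest, 12 cells, and Ier5, Btg2 and Zfp36l1 were not detected there, which allows up to 103 CPM in 29133 UMIs. Such limits cover counting error only.

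RefSeq promoter sequences (GRCm38.p6) were at hand for 7 of the 10 genes, and those of 5 genes that rose with IL1β in HSC-like or other cells are shown, from 5′ to 3′ on the gene's strand, because immediate early promoters are known for short binding motifs. The motifs searched on both strands of the 200 bases before each start were TGACGTCA (CRE), TGANTCA (AP-1), GCGTGGGCG (EGR), the CArG box and the NF-κB motif by name, where a CRE holds no AP-1 match. Of 32851 such windows, CRE was in 1.47%, AP-1 in 5.48%, EGR in 0.490%, the CArG box in 1.18% and the NF-κB motif in 6.07%. Capitals mark a match. The Ier3 stretch, chr17:35821513-35821683 on the plus strand, ends where the GENCODE gene begins and holds the NF-κB motif 92 to 83 bases before the RefSeq start. The Btg2 stretch is chr1:134079156-134079355 on the minus strand, with CRE 166 to 159 bases before the start. The Zfp36l1 stretch is chr12:80113014-80113213 on the minus strand, with AP-1 129 to 123 bases before the start. The Ier5 stretch, chr1:155099637-155099836 on the minus strand, held no match, nor did the Btg1 window. The Zfp36 window lies wholly within the GENCODE gene, and only chr7:28379267-28379296 on the minus strand is shown, around a CArG box 58 to 49 bases before the start. Of the windows of the 5 Egr2 starts, 4 held a CArG box and 1 the NF-κB motif. The 4 lie wholly within the GENCODE gene. Those from 67537669, 67537670 and 67537730 overlap and hold the same CArG box, so the 4 windows do not hold separate boxes. A match is a string of letters and no measured binding.
Ier3: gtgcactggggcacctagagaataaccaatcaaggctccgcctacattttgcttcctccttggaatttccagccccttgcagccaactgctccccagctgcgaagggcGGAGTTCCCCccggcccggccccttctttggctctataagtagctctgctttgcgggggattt
Btg2: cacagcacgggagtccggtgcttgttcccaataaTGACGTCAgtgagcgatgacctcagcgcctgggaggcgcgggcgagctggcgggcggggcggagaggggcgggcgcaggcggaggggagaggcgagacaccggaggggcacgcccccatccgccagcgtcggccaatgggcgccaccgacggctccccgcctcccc
Zfp36l1: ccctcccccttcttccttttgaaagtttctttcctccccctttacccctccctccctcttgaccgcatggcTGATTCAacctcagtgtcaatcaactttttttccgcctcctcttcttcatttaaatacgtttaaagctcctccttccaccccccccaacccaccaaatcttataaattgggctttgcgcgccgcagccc
Ier5: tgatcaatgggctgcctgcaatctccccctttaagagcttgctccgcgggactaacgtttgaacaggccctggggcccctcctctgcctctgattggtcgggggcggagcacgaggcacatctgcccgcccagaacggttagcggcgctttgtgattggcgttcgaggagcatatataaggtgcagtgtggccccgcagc
Zfp36: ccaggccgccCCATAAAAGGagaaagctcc

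Across the 18 classes, levels are CPM of each mouse, as the median with the lowest and highest mouse, and are compared within a gene only. Zfp36l2 was highest in HSC-like cells, at 1263 (828 to 2163) CPM over 16 mice, and its highest level was in that class in all 8 libraries. Megakaryocyte-erythroid progenitor (MEP)-like cells followed at 825 CPM and multipotent progenitor (MPP)-like cells at 808 CPM, and erythroblast-like cells had the lowest median, 172 CPM. Zfp36, which encodes tristetraprolin, was at 645.5 (69.7 to 1462) CPM in HSC-like cells, the highest class in 6 of 8 libraries, and at 18.8 CPM in cells like erythroid colony-forming units (CFU-E), the lowest. Zfp36l1 had another order, with B/plasma-like cells at 204 (116 to 264) CPM, dendritic cell (DC)-like cells at 169.7 CPM and granulocyte progenitor-like cells lowest at 6.12 (0.874 to 13.4) CPM. Of the family, Zfp36 and Zfp36l2 thus had their highest median in HSC-like cells and Zfp36l1 in B/plasma-like cells.

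Egr1 was highest in HSC-like cells, 519 (195 to 1618) CPM, then in MEP-like cells, 371 (70.2 to 1727) CPM over 14 mice, and in MPP-like cells, 203 CPM. HSC-like cells were the highest class in 5 libraries and MEP-like cells in the other 3. Egr1 was lowest in granulocyte progenitor-like cells, 19.1 (4.86 to 123) CPM. Egr2 was low in most mice of each class, with a highest median of 3.46 CPM in B/plasma-like cells, but single mice reached 38.3 CPM in MEP-like and 31.6 CPM in basophil-like cells (69 and 207 UMIs over the mice). Its highest class was basophil-like in 3 libraries, MEP-like in 3 and NK/T-like in 2. Its sum over the mice of HSC-like cells was 15 UMIs, and it passed the filter on low counts in no tested class. Ier2 was highest in HSC-like cells (456 CPM), basophil-like cells (278 CPM) and MPP-like cells (249.7 CPM). Ier3 had nearly the same median in HSC-like cells, 187.5 (31.00 to 641) CPM, and basophil-like cells, 185 (67.5 to 852) CPM, and basophil-like cells were its highest class in 6 of 8 libraries. CFU-E-like cells were lowest for both, at 60.9 CPM of Ier2 and 13.4 CPM of Ier3. Ier5 was highest in DC-like cells, 172.5 CPM, ahead of B/plasma-like cells at 133 CPM and HSC-like cells at 99.4 CPM, and lowest in granulocyte progenitor-like cells, 11.5 CPM.

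Btg1 was highest in natural killer and T (NK/T)-like cells, 381 (174 to 878) CPM over 15 mice, and in DC-like cells, 366 (184 to 729) CPM, each the highest class in 4 of 8 libraries. Btg2 was highest in DC-like cells, 259 CPM, then in common lymphoid progenitor (CLP)-like, B/plasma-like and HSC-like cells, at 219.8, 208 and 203 CPM. Both were lowest in CFU-E-like cells, at 37.4 CPM of Btg1 and 24.8 CPM of Btg2. For each gene, none of the 17 pairs of neighbours in the order of classes had ranges apart or medians apart by more than the larger standard deviation. Ranges and standard deviations were over the mice of all 4 groups, so they also hold the differences between groups and between libraries. Classes were not compared within a mouse, so this check cannot tell whether neighbours in an order differ.

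**Figure D1:**
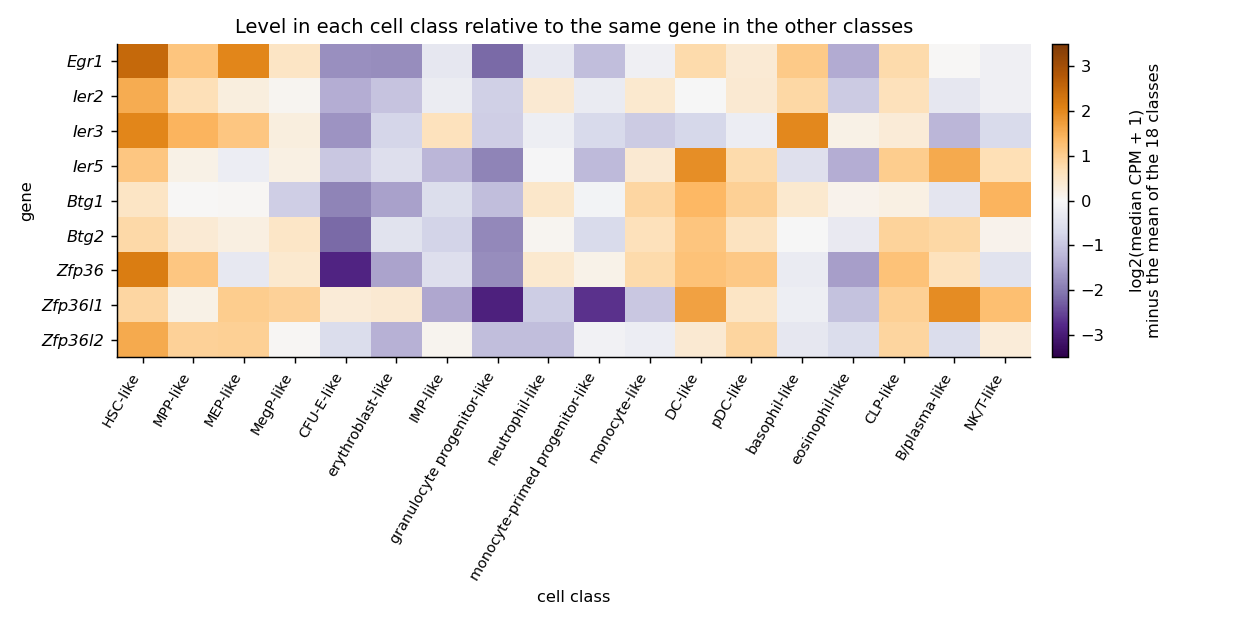
Level of 9 genes (rows, Egr2 left out) in the 18 cell classes (columns): log2(median CPM over mice + 1) minus the mean of the gene's 18 classes, so that colours compare classes within a gene. Egr1, Ier2, Zfp36 and Zfp36l2 are darkest orange in HSC-like cells, and CFU-E-like or granulocyte progenitor-like cells have the lowest level of 8 genes, erythroblast-like cells that of Zfp36l2.

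The comparison of IL1β with vehicle asked which genes changed in cells of mice exposed to the cytokine for weeks. In HSC-like cells of WT mice, 6 of the 9 tested genes rose, namely Ier3, Ier5, Zfp36, Btg2, Btg1 and Zfp36l2, and none fell (edgeR's quasi-likelihood test, Benjamini-Hochberg adjusted p under 0.05 over all genes). Over all 5695 genes tested, 4.92% were called, 117 higher and 163 lower, and the median log2 fold change was 0.87 over the 9 genes and 0.01 over all. In Tet2-KO mice, 4 of the 9 rose, Ier3, Zfp36, Ier5 and Zfp36l2, where 8.04% of all genes were called, and the medians were 0.77 and 0.01. Without the WT mouse of 12 cells, the same 6 and the same 4 were called. With the 8 libraries in place of the mice, 3 were called in WT (Ier3, Ier5 and Zfp36l2) and 4 in Tet2-KO mice. Of all 8314 genes tested in that fit, 2.00% were called in WT and 4.99% in Tet2-KO mice. Leaving out 1 mouse at a time gave 2 to 6 in WT, with 2 without WT mouse 3 with IL1β or mouse 4 with vehicle and 3 without WT mouse 1 with IL1β or mouse 3 with vehicle. In Tet2-KO mice it gave 3 to 7, with 7 without Tet2-KO mouse 1 with vehicle. Ier3 was called in each of these fits, in both genotypes, but missed the threshold in WT mice with stricter cell quality (2.30, adjusted p = 0.0518) and in Tet2-KO mice with DESeq2 (1.72, adjusted p = 0.0651) and with cells thinned to 3000 UMIs (1.504, adjusted p = 0.0505). The fit with stricter quality held 12 mice, only 2 of them WT with IL1β, and the thinned fit held 14. DESeq2 called 3 genes in WT and 2 in Tet2-KO mice, and stricter cell quality 2 in WT mice. A hashtag ratio rule, whose fit held 12 mice, called 7 in Tet2-KO mice. The shares of all genes called under these settings were not counted. In WT mice, the fits that left out a mouse lost the call of Btg1 in 5, Zfp36 in 4, Btg2 in 3, Ier5 in 2 and Zfp36l2 in 1 of 16, and in Tet2-KO mice that of Zfp36 in 1. The values of mice below are CPM scaled by TMM factors, listed for mice 1 to 4. Log2 ratios by library are of plain CPM over all gated cells of a library, with or without a hashtag call. They are on another scale than the fold changes by mouse and can both lie on 1 side of them.

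Ier3, the NF-κB target that protects cells from death, rose in both genotypes. In HSC-like cells of WT mice, it was at 195, 34.03, 34.1 and 38.6 CPM with vehicle and at 172, 479.9, 475 and 243 CPM with IL1β. Mouse 1 with vehicle, at 195 CPM, was above mouse 1 with IL1β, so the groups overlapped, and the log2 fold change was 2.36 ± 0.45 (SE), adjusted p = 0.00104. In Tet2-KO mice it was at 230.1, 163, 70.3 and 95.8 CPM with vehicle and at 415, 233, 459.5 and 695 CPM with IL1β. There the groups did not overlap, as for 6.53% of all genes with all mice higher with IL1β, and the log2 fold change was 1.69 ± 0.35 (SE), adjusted p = 0.0024. By library, the log2 ratio in WT mice was 0.93 between the libraries of mice 1 and 2 and 3.35 between those of mice 3 and 4, and in Tet2-KO mice 1.13 and 2.94. The direction was thus the same in both, and the difference was larger in mice 3 and 4. Ier5, a regulator of the heat shock response, was at 38.97, 0, 68.3 and 17.8 CPM with vehicle and 87.3, 105, 148 and 146 CPM with IL1β in WT mice (0 to 82 UMIs a mouse over all groups). These groups did not overlap, nor did those of Zfp36l2 below, as for 4.21% of all genes with all mice higher with IL1β. The log2 fold change was 1.49 ± 0.38 (SE), adjusted p = 0.0161, although the limit of 103 CPM on the undetected mouse reaches into the range with IL1β. It ran from 1.08 to 2.37 over the fits that left out a mouse and from 0.73 to 1.68 over the other alternatives, not all of which called it. In Tet2-KO mice Ier5 was at 111, 178, 79.9 and 52.2 CPM with vehicle and 339, 145, 204 and 216 CPM with IL1β, which overlapped, at 1.14 ± 0.28 (SE), adjusted p = 0.0079. Ier2, whose level in WT mice was 389.7, 544, 255 and 175 CPM with vehicle and 596, 389.9, 435 and 279 CPM with IL1β, was not called in either genotype (log2 fold change 0.65 ± 0.31 (SE), adjusted p = 0.261 in WT and 0.22 ± 0.27 (SE), adjusted p = 0.685 in Tet2-KO).

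Of the Zfp36 family, Zfp36 and Zfp36l2 rose in both genotypes, and Zfp36l2 had the smallest standard errors of the 9 genes. In WT HSC-like cells Zfp36l2 was at 998, 1123, 1169 and 1108 CPM with vehicle and 1501, 1469.7, 2143 and 1433 CPM with IL1β. In Tet2-KO cells it was at 1199.8, 903, 1205 and 1088 CPM with vehicle and 2032, 1939, 2297 and 1896 CPM with IL1β. All 8 mice with IL1β were above all 8 with vehicle, at log2 fold changes of 0.58 ± 0.14 (SE), adjusted p = 0.0113 in WT and 0.88 ± 0.14 (SE), adjusted p = 0.000114 in Tet2-KO mice. The log2 ratios by library were 0.78 and 0.90 in WT and 0.96 and 0.94 in Tet2-KO mice, for mice 1 and 2 and for mice 3 and 4. All mice with IL1β were higher than all with vehicle for 4.21% of all genes in WT and 6.53% in Tet2-KO mice. The share of all genes with all 8 above all 8 was not counted. Zfp36 was at 397.5, 715, 202 and 77.2 CPM with vehicle and 947, 345, 856 and 449 CPM with IL1β in WT mice, overlapping, at a log2 fold change of 1.46 ± 0.43 (SE), adjusted p = 0.0395. In Tet2-KO mice it was at 935, 622, 256 and 144 CPM with vehicle and 1202, 1102, 1481 and 1585 CPM with IL1β, not overlapping, at 1.48 ± 0.37 (SE), adjusted p = 0.00963. The 4 Tet2-KO mice with IL1β were the 4 highest of all 16 mice, an order for which the share of all genes was not counted. Its log2 ratios by library differed more, 1.11 and 2.47 in WT and 0.78 and 2.98 in Tet2-KO mice. Zfp36l1, with 0 to 75 UMIs a mouse, was not called in HSC-like cells (0.80 ± 0.31 (SE), adjusted p = 0.143 in WT and 0.36 ± 0.25 (SE), adjusted p = 0.409 in Tet2-KO mice).

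The antiproliferative genes were called in WT mice and not in Tet2-KO mice, but their difference between genotypes did not pass the test below. Btg2 was at 265, 0, 102 and 56.5 CPM with vehicle and 424, 165, 239 and 134 CPM with IL1β in WT mice, overlapping, at 1.33 ± 0.36 (SE), adjusted p = 0.0259. In Tet2-KO mice it was at 384, 192, 147 and 165 CPM with vehicle and 481, 449, 315 and 366 CPM with IL1β, at 0.77 ± 0.29 (SE), adjusted p = 0.0959. Mouse 1 with vehicle in each genotype was within the range of mice with IL1β. Btg1 was at 164, 204, 126 and 89.1 CPM with vehicle and 219, 135, 256 and 255 CPM with IL1β in WT mice, overlapping, at 0.87 ± 0.26 (SE), adjusted p = 0.0434, and its log2 fold change in Tet2-KO mice was 0.44 ± 0.21 (SE), adjusted p = 0.21. The log2 ratios by library were positive in both genotypes for Btg2 (0.79 and 1.34 in WT, 0.63 and 1.16 in Tet2-KO) and Btg1 (0.73 and 1.20, 0.68 and 0.63). Egr1 was higher in mice 1 and 2 than in mice 3 and 4 of every group. It was at 834, 578, 336 and 258.5 CPM with vehicle and 1478, 599.9, 317 and 194 CPM with IL1β in WT mice, and at 1771, 1317, 483 and 348 and 1497, 1678, 498 and 421 CPM in Tet2-KO mice. The log2 fold changes of 0.58 ± 0.48 (SE), adjusted p = 0.576 in WT and 0.07 ± 0.44 (SE), adjusted p = 0.96 in Tet2-KO mice did not pass the test.

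**Figure D2:**
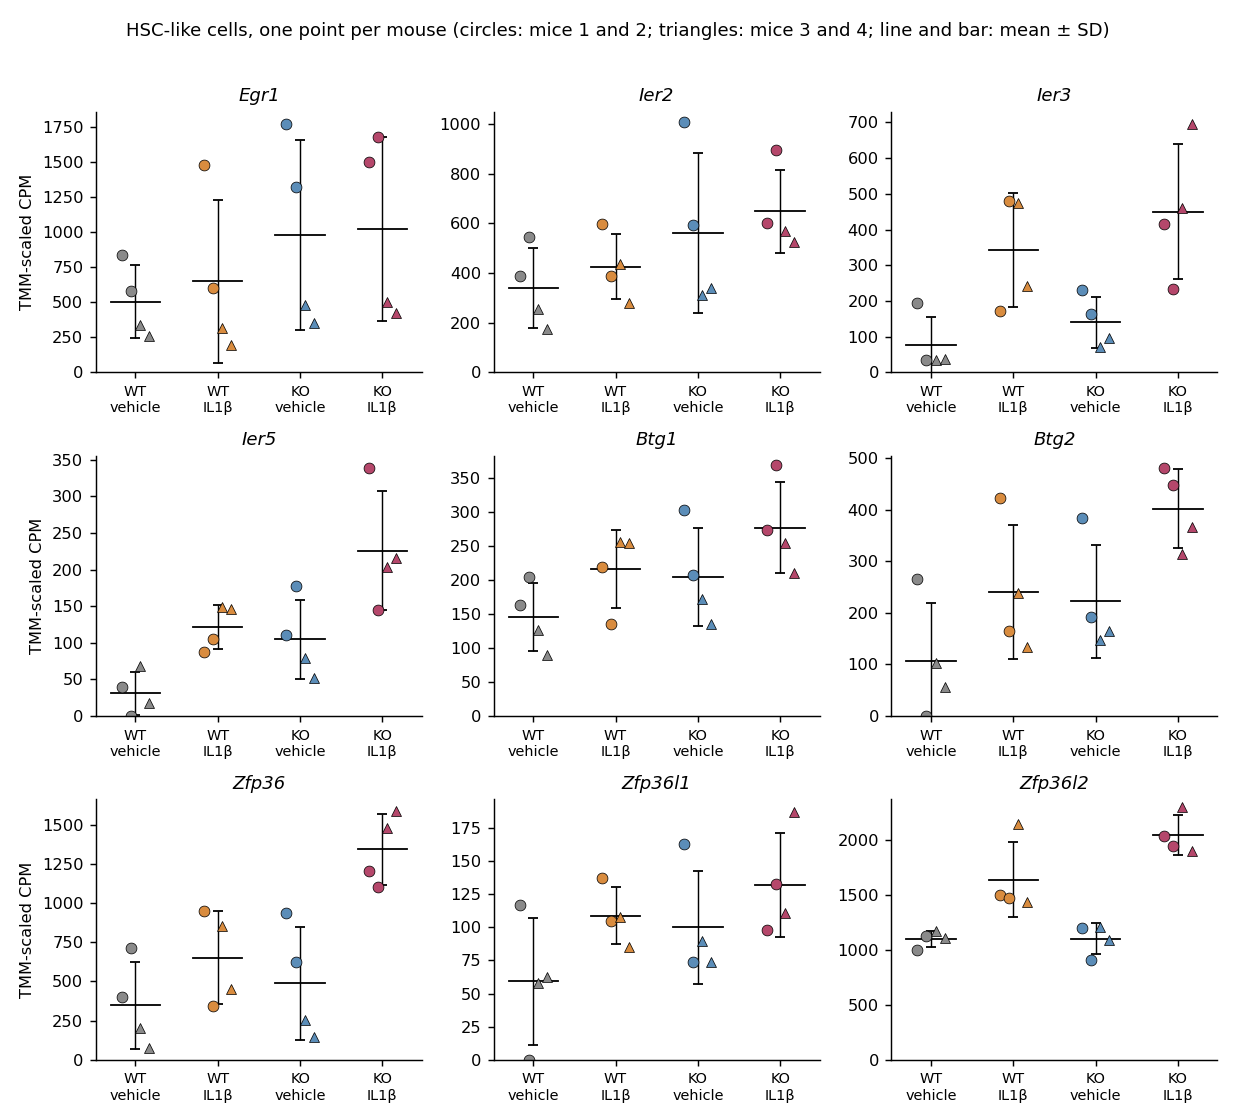
TMM-scaled CPM of 9 genes in HSC-like cells, 1 point per mouse in the 4 groups, with circles for mice 1 and 2, triangles for mice 3 and 4, and the mean ± SD (n = 4) of a group. All 8 mice with IL1β lie above all 8 with vehicle for Zfp36l2, and circles lie above triangles in every group for Egr1. The share of all genes with the first of these orders was not counted.

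Summed markers of some more committed cells, those of 3 myeloid progenitor classes and of basophils, were also higher with IL1β in HSC-like cells of WT mice. Those of plasmacytoid DCs and of CLPs overlapped between vehicle and IL1β. The summed CPM of the 6 markers of immature myeloid progenitors (IMP), all detected, was 1270.0 to 1987 in WT mice with vehicle and 2559 to 3742 with IL1β, and 1262 to 2473 and 2069 to 2591.5 in Tet2-KO mice. That of the 7 granulocyte progenitor markers was 309 to 953 and 1328 to 2162 in WT and 597 to 1505 and 984 to 1502 in Tet2-KO mice, and Fcnb alone was at 0, in WT mice with IL1β. The 6 markers of monocyte-primed progenitors summed to 240.3 to 439 and 738 to 1522 CPM in WT and 122 to 746 and 417 to 741 CPM in Tet2-KO mice. For these 3 lists the WT groups did not overlap, whereas the Tet2-KO groups did. The 7 basophil markers summed to 71.5 to 108 and 186 to 299 CPM in WT and 13.6 to 117 and 72.8 to 232 CPM in Tet2-KO mice. The 9 HSC markers summed to 1201 to 1556, 987 to 1434, 1495 to 1643 and 1369.9 to 1612 CPM in WT vehicle, WT IL1β, Tet2-KO vehicle and Tet2-KO IL1β mice. In the same order of groups, the 7 plasmacytoid DC markers summed to 304 to 515, 327 to 449, 349.5 to 486 and 416 to 553 CPM, with Siglech and Klk1 at 0 in all groups and Cox6a2 and Ccr9 in all but WT vehicle. The 6 CLP markers summed to 68.7 to 126, 60.9 to 78.8, 54.3 to 86.1 and 63.8 to 83.2 CPM, with Rag1 and Rag2 at 0 in all groups. The 6 eosinophil markers summed to 0 to 7.15, 0 to 28.7, 0 to 11.2 and 5.32 to 32.04 CPM, with Ear1, Ear2 and Ear6 at 0 in all groups, Epx in both IL1β groups and Prg3 in Tet2-KO IL1β. In IMP-like cells themselves, the median of Ier3 was 70.1 CPM, of Zfp36 94.7 CPM and of Zfp36l2 447 CPM, below the medians of 187.5, 645.5 and 1263 CPM in HSC-like cells. In basophil-like cells, the median of Ier3 was 185 (67.5 to 852) CPM, about that of HSC-like cells. The part of other cell types in the changes of the 9 genes was not tested.

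Over the 6 tested classes, 38 of 108 comparisons of IL1β with vehicle were called, all of them higher with IL1β, and Egr1 and Ier2 were called in none. Of all genes, the share called ran from 1.59% in MEP-like to 38.6% in granulocyte progenitor-like cells, both of Tet2-KO mice. Ier3 was called in 9 of its 12, in WT cells of each class but MEP-like and in Tet2-KO cells of each but monocyte-like and MEP-like. In MPP-like cells it was at 90.5, 41.5, 44.9 and 32.1 CPM with vehicle and 110.2, 219, 224 and 209 CPM with IL1β in WT mice (1.81 ± 0.32 (SE), adjusted p = 0.00065), and at 136, 81.6, 40.7 and 43.8 and 225, 256, 295 and 242 CPM in Tet2-KO mice (1.78 ± 0.29 (SE), adjusted p = 0.000216), without overlap in either. For Ier3 there, the CPM ratio of the library of mice 1 and 2 over that of mice 3 and 4 was 0.575 to 2.23 over the 4 groups. In MPP-like cells, 7.03% of all genes in WT and 9.74% in Tet2-KO mice were higher in all 4 mice with IL1β. Zfp36l2 was called in 8, the HSC-like, MPP-like, IMP-like and granulocyte progenitor-like cells of both genotypes, with log2 fold changes from 0.54 to 0.88. In MPP-like cells, 5 genes were called in WT mice (Ier3, Ier5, Zfp36, Btg1 and Zfp36l2, where 10.5% of all genes were called) and 6 in Tet2-KO mice (the same and Zfp36l1, 18.7% of all). Zfp36 there had a log2 fold change of 1.10 ± 0.36 (SE), adjusted p = 0.0481 in WT and 1.00 ± 0.33 (SE), adjusted p = 0.0326 in Tet2-KO mice. Of the 16 fits that left out a mouse, 9 lost the call in WT (0.87 to 1.38, adjusted p up to 0.174) and 5 in Tet2-KO mice (0.72 to 1.81, adjusted p up to 0.135), and the 8 libraries and DESeq2 ended it in both. Zfp36l1 was at 87.1, 40.8, 35.9 and 27.6 CPM with vehicle and 101, 93.6, 73.7 and 72.9 CPM with IL1β in Tet2-KO mice (0.80 ± 0.23 (SE), adjusted p = 0.0163).

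In IMP-like cells, 5 genes were called in WT mice (14.2% of all genes) and 3 in Tet2-KO mice (25.4% of all). Ier3 had log2 fold changes of 1.58 ± 0.30 (SE) in WT and 1.49 ± 0.26 in Tet2-KO mice, and Zfp36l2 of 0.63 ± 0.12 and 0.75 ± 0.12. Zfp36 (1.39 ± 0.43 (SE), adjusted p = 0.0294), Btg1 (0.63 ± 0.18 (SE), adjusted p = 0.0172) and Ier5 (0.99 ± 0.34 (SE), adjusted p = 0.0499) were called in WT mice, and Zfp36l1 (0.81 ± 0.30 (SE), adjusted p = 0.0495) in Tet2-KO mice. Of the 16 fits that left out a mouse, Zfp36l1 lost its call in 9 (0.12 to 1.10 over all 16), Ier5 in 8 (0.63 to 1.24) and Zfp36 in 4 (1.03 to 2.03). Zfp36l1 there was at 30.04, 18.9, 15.8 and 15.6 CPM with vehicle and 25.4, 60.99, 22.6 and 19.3 CPM with IL1β, where mouse 2 alone stood above every mouse with vehicle, and its log2 fold change without mouse 2 was 0.12 (not called). In granulocyte progenitor-like cells, 29.1% of all genes were called in WT and 38.6% in Tet2-KO mice. Of the 9 genes, Ier3 (1.27 ± 0.36 (SE), adjusted p = 0.0105), Ier5 (0.84 ± 0.23 (SE), adjusted p = 0.00869), Btg1 (0.61 ± 0.18 (SE), adjusted p = 0.0165) and Zfp36l2 (0.59 ± 0.14 (SE), adjusted p = 0.00315) rose in WT mice, and Ier3 (0.93 ± 0.32 (SE), adjusted p = 0.0243) and Zfp36l2 (0.54 ± 0.13 (SE), adjusted p = 0.00335) in Tet2-KO mice. The 2 of 9 in Tet2-KO mice were a smaller share than that of all genes. With the 8 libraries as replicates, none of the 9 was called there, where 9.30% of all genes were called in WT and 17.1% in Tet2-KO mice.

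Monocyte-like cells had another pattern. In WT mice, Zfp36l1 was at 10.9, 25.7, 5.26 and 7.20 CPM with vehicle and 48.4, 71.4, 22.1 and 39.6 CPM with IL1β (2.43 ± 0.40 (SE), adjusted p = 0.00106). Its log2 ratios by library were 2.35 for mice 1 and 2 and 1.93 for mice 3 and 4. Ier3 was at 24.5, 8.58, 5.79 and 5.40 CPM with vehicle and 66.9, 63.3, 20.6 and 31.1 CPM with IL1β (2.09 ± 0.48 (SE), adjusted p = 0.0123), a call that was lost in 3 of the 16 fits that left out a mouse (WT mouse 1 with IL1β, mouse 3 or 4 with vehicle; 1.71 to 1.78) and with the 8 libraries (1.80, adjusted p = 0.174). These were the 2 genes called of 9, where 6.24% of all genes were called. In Tet2-KO mice none was called, where 5.44% of all genes were. Zfp36l1 there was at 28.7, 27.1, 13.6 and 10.4 CPM with vehicle and 18.4, 40.2, 35.9 and 48.2 CPM with IL1β (1.01 ± 0.34 (SE), adjusted p = 0.0779), and Ier3 at 23.7, 11.4, 8.81 and 6.94 and 55.2, 53.6, 25.5 and 24.1 CPM (1.45 ± 0.46 (SE), adjusted p = 0.0638). The Tet2-KO groups did not overlap for Ier3, as for 5.5% of all genes in that direction. The difference between the genotypes in the change of Zfp36l1 was -1.43 ± 0.53 (SE), adjusted p = 1.00 on the log2 scale, which did not pass the test, as 0% of all genes did (edgeR, 309 genes at an unadjusted p under 0.05). The summed markers of IMP were also higher with IL1β in monocyte-like cells of WT mice, 2014 to 2563 CPM with vehicle and 2743 to 4303 CPM with IL1β, and the part of these cells was not tested. In MEP-like cells, Ier5 alone was called, in WT mice (1.35 ± 0.35 (SE), adjusted p = 0.0326, with 2.31% of all genes called), from 31.2, 0, 36.1 and 26.1 CPM with vehicle to 97.97, 90.6, 55.7 and 29.6 CPM with IL1β. The call was lost in 6 of the 14 fits that left out a mouse (1.08 to 1.53, adjusted p up to 0.167), with the 8 libraries, thinned cells, the hashtag ratio rule, limma voom with the library as a random effect and stricter cell quality. The mouse listed at 0 had few UMIs, which allow up to 83.2 CPM. The MEP fit held 14 mice, without Tet2-KO mouse 2 with vehicle and Tet2-KO mouse 1 with IL1β, and called none in Tet2-KO mice (1.59% of all genes).

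**Figure D3:**
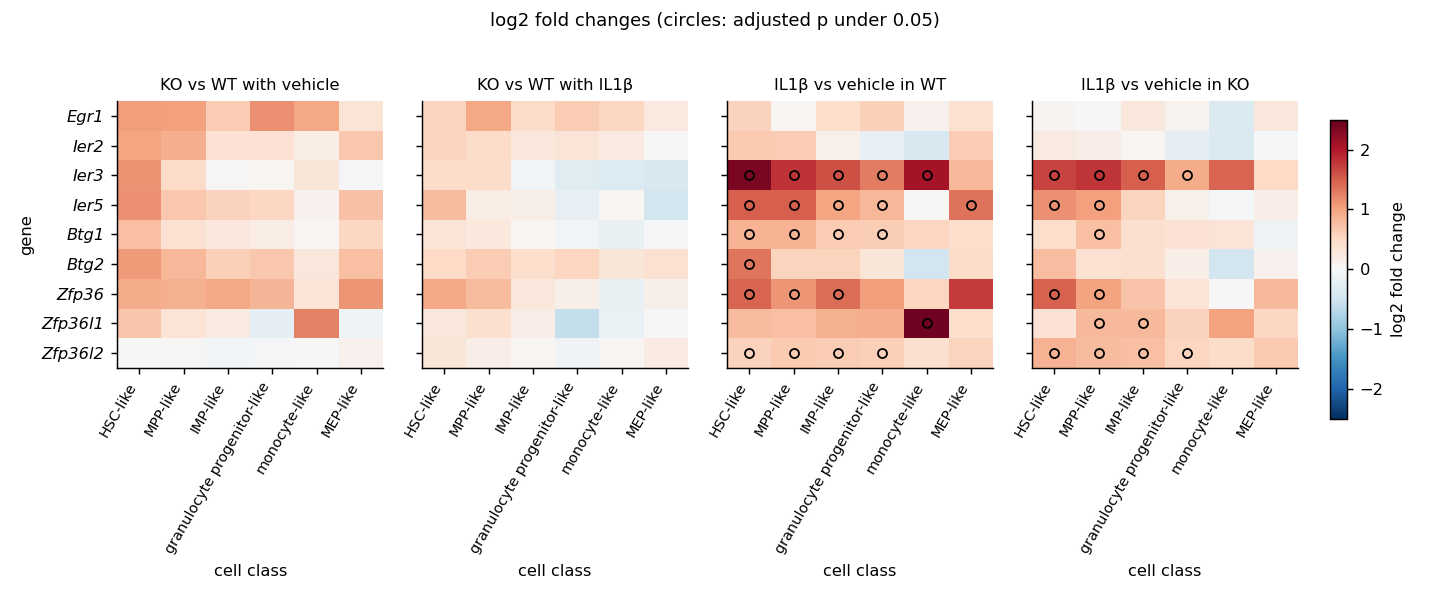
Log2 fold changes of 9 genes (rows) in the 6 tested cell classes (columns) for the 4 comparisons (panels), with red above 0, blue below 0 and a circle where the adjusted p was under 0.05. The 38 circles are all in the panels of IL1β against vehicle, 9 of them for Ier3 and 8 for Zfp36l2, and none for Egr1 or Ier2. In those panels, 1.59% to 38.6% of all genes were called in a class and genotype.

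**Figure D4:**
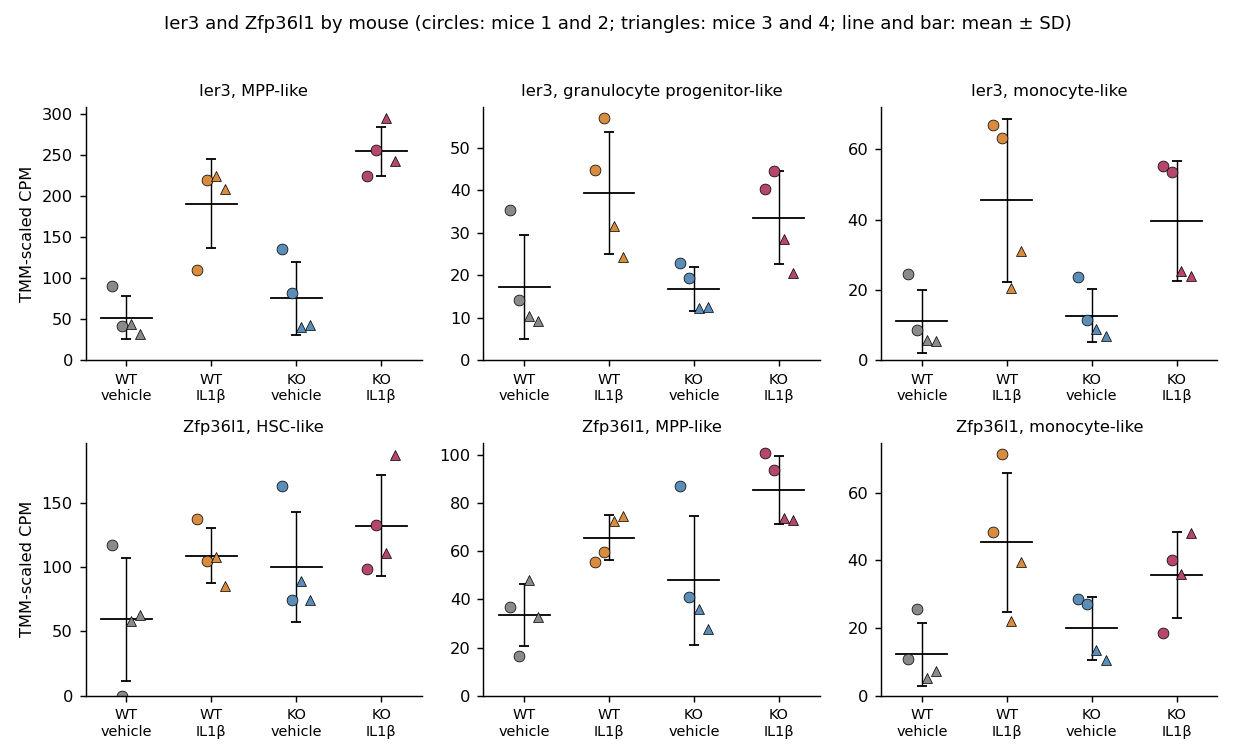
TMM-scaled CPM of Ier3 (top) and Zfp36l1 (bottom) in 3 cell classes each, 1 point per mouse in the 4 groups, with circles for mice 1 and 2, triangles for mice 3 and 4, and the mean ± SD (n = 4) of a group. In monocyte-like cells the mean of both genes is higher with IL1β in each genotype, and for Ier3 mice 1 and 2 lie above mice 3 and 4 in every group.

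The comparison of Tet2-KO with WT mice asked what the loss of Tet2 changed under each treatment. None of the 9 genes was called in any of the 6 classes, with vehicle or with IL1β. In HSC-like cells, 0.615% of all genes were called with vehicle and 0.0176% with IL1β, and the shares in the other classes were 0.0212% and 0.0636% (MPP-like), 0.0109% and 0.0109% (IMP-like), 0.0857% and 0.333% (granulocyte progenitor-like), 0.109% and 0.0219% (monocyte-like), and 0% and 0% (MEP-like, where edgeR's test gave 267 and 394 genes with an unadjusted p under 0.05). In HSC-like cells all 9 log2 fold changes were positive, while 52.4% of all genes had positive values with vehicle and 50.97% with IL1β. The paper lists Egr1, Ier2, Ier5 and Btg2 in an inflammation signature enriched in Tet2-KO HSCs of these samples. The 10 genes were chosen with earlier results known, so neither their direction nor their unadjusted p is independent evidence. The unadjusted p was under 0.05 for 8 of the 9 with vehicle and 3 with IL1β, against 378 and 420 of all 5695 genes. In the same comparison with vehicle, of 10 heat shock genes tested, 9 had positive log2 fold changes, 5 an unadjusted p under 0.05 and none an adjusted p under 0.05 (median 0.37), and of 25 other immediate early genes, 21 were positive, 13 had an unadjusted p under 0.05 and 3 were called higher (median 1.00). Their part in the result was not tested. The median of the 9 genes was 0.98 with vehicle and 0.51 with IL1β, over all genes 0.02 and 0.01. Without the filter on low counts, 6 of the 10 were called higher in Tet2-KO HSC-like cells with vehicle (Btg2, Ier5, Zfp36, Ier2, Ier3 and Egr1) and 1 with IL1β (Zfp36), where 76 and 20 of 14469 genes were called in either direction. Each of these comparisons shares its mice with those of IL1β against vehicle, so that a low group of WT mice with vehicle enters both.

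With vehicle, the log2 fold changes in HSC-like cells were 1.13 ± 0.38 (SE) for Ier5, 1.12 ± 0.49 for Ier3, 1.06 ± 0.36 for Btg2, 1.05 ± 0.48 for Egr1, 0.98 ± 0.30 for Ier2 and 0.94 ± 0.43 for Zfp36, with adjusted p from 0.205 to 0.717. Zfp36l2 differed least, by 0.01 ± 0.14. The mice of the genotypes overlapped for all 9 genes, whereas 1.69% of all genes were higher in all 4 Tet2-KO mice than in all 4 WT mice. By library, in plain CPM, the log2 ratio of Egr1 with vehicle was 1.09 for mice 1 and 2 and 0.46 for mice 3 and 4. That of Ier2 was 0.92 and 0.51, and that of Btg2 0.29 and 0.86. With IL1β, the largest log2 fold change was that of Zfp36, 0.96 ± 0.36 (SE), adjusted p = 0.546, with levels of 947, 345, 856 and 449 CPM in WT and 1202, 1102, 1481 and 1585 CPM in Tet2-KO mice, which did not overlap, as for 2.19% of all genes in that direction. Its log2 ratio by library was 0.47 for mice 1 and 2 and 0.96 for mice 3 and 4. In MPP-like cells with IL1β, Zfp36 (0.78 ± 0.32 (SE), adjusted p = 0.536) and Ier3 (0.46 ± 0.27 (SE), adjusted p = 0.712) were likewise higher in all 4 Tet2-KO mice, as 2.48% of all genes were. The test of the difference between the changes with IL1β in the 2 genotypes called none of the 9 genes in HSC-like cells and none of all genes (0%, with 242 genes at an unadjusted p under 0.05). It gave -0.67 ± 0.59 (SE) for Ier3, -0.56 ± 0.47 for Btg2, -0.43 ± 0.34 for Btg1 and 0.29 ± 0.20 for Zfp36l2, where a negative value is a smaller change in Tet2-KO mice.

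The libraries of mice 1 and 2 and of mice 3 and 4 stood apart for several of these genes, in every group. The labels name the pools and no batch. Library values are plain CPM over all gated cells of a library, with or without a hashtag call. In HSC-like cells, Egr1 had a CPM ratio of the library of mice 1 and 2 over that of mice 3 and 4 of 2.22 to 4.12 over the 4 groups. In WT mice with vehicle it was at 622 CPM in the library of mice 1 and 2 and 280.0 CPM in the other, and in WT mice with IL1β at 1344 and 326 CPM. In Tet2-KO mice the values were 1328 and 385 CPM with vehicle and 1541.5 and 419 CPM with IL1β. Mice 1 and 2 were above mice 3 and 4 in each of the 4 groups for Egr1 and 6 other genes, Rgs1, Mcl1, Tmed5, Akap13, Nr4a1 and Rfk, which together are 0.123% of the 5695 genes. Of these, Nr4a1 and Mcl1 are immediate early genes and Rgs1 damps G protein signals. The opposite order in every group was seen for 5 genes, Pogz, Atp6v1e1, Hsp90b1, Morf4l1 and Abcc1. The ratio of Egr1 was 1.94 to 4.10 in MPP-like, 2.38 to 13.5 in granulocyte progenitor-like and 3.24 to 11.6 in monocyte-like cells. Ier2 and Btg2 had ratios above 1 in all 4 groups of all 6 classes, from 1.17 to 4.61 and from 1.38 to 4.19. In monocyte-like cells, mice 1 and 2 were above mice 3 and 4 in every group for 7 of the 9 genes and for 57 of 9140 genes in all (0.624%), and the opposite order was seen for 18 genes, none of them among the 9.

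Zfp36l2 showed no such split, with ratios of 0.749 to 1.06 in HSC-like and 0.800 to 1.69 in monocyte-like cells. Ier3 in HSC-like cells had ratios of 0.606 to 3.24, above 1 with vehicle and below 1 with IL1β in both genotypes. Zfp36 had ratios of 0.794 to 3.65 in HSC-like cells, above 1 in 3 of 4 groups. The median UMI count of HSC-like cells by library was 1985 to 3020.0, and the median share of mitochondrial UMIs, with cells of both hashtags included, 3.94% to 5.16%. The median UMI count of cells in the library of mice 1 and 2 was below that of mice 3 and 4 in WT mice with vehicle (2358 and 2829) and above it in the other 3 groups (2546 and 1985 in WT with IL1β, 2718 and 2097 in Tet2-KO with vehicle, 3020.0 and 2715 in Tet2-KO with IL1β). Depth and Egr1 thus had the same order in 3 of 4 groups, and the part of depth was not tested beyond the thinned shares below.

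**Figure D5:**
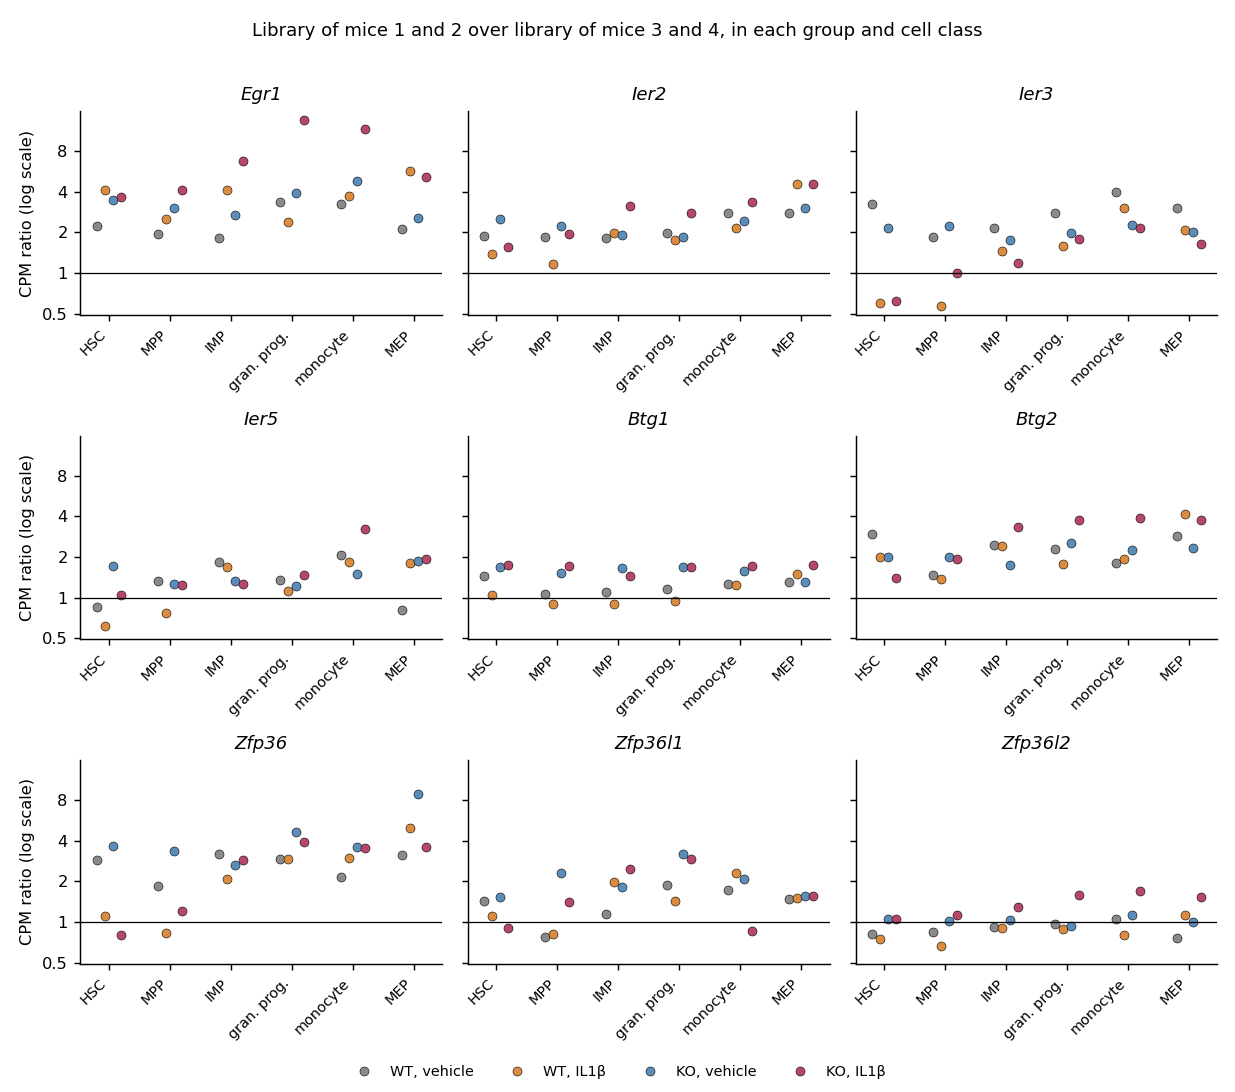
CPM in the library of mice 1 and 2 divided by CPM in the library of mice 3 and 4 (log axis), in the 6 tested cell classes, with 1 point for each of the 4 groups and a line at a ratio of 1. Every point of Egr1, Ier2 and Btg2 lies above 1, and the points of Zfp36l2 lie on both sides of it.

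The same order was seen in the share of cells. With each HSC-like cell thinned to 1500 UMIs, which left out 2 to 47 cells of a library, the share with an Egr1 UMI was 56.8, 69.8, 73.01 and 74.2% in mice 1 and 2 of the WT vehicle, WT IL1β, Tet2-KO vehicle and Tet2-KO IL1β groups, and 29.03, 31.1, 36.6 and 33.3% in mice 3 and 4. Unthinned, the share was 39.8% to 83.5%. Mice 1 and 2 had a higher share in each group. Cells with an Ier3 UMI made up 5.65% to 19.5% with vehicle and 26.9% to 54.2% with IL1β over the libraries, and those with a Zfp36l2 UMI 76.1% to 82.95% and 82.4% to 93.8%, so that these libraries did not overlap for Ier3 and overlapped for Zfp36l2 in a narrow range. Those with a Zfp36 UMI made up 17.3% to 59.7% and 46.2% to 68.4%. Shares of cells were taken for the genes described here only, so how many of all genes separate the libraries in this way was not counted. In CFU-E-like cells, where levels were low and the median depth was 8013.5 to 14715 UMIs against 1985 to 3020.0 in HSC-like cells, the thinned shares were 1.65% to 9.24% for Egr1, 0.362% to 4.47% for Ier3, 0.795% to 4.36% for Zfp36 and 18.2% to 47.5% for Zfp36l2.

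Genes that act with these were read from lists, given as counts in HSC-like cells. Of 42 other immediate early genes, 25 were tested. With IL1β, 8 rose in each genotype and none fell, with medians of 0.87 and 0.44. Those named are the largest called changes. The AP-1 subunit gene Junb was at 0 to 296 CPM with vehicle and 593 to 1156 CPM with IL1β in WT mice (log2 fold change 2.49 ± 0.39, adjusted p = 7.97e-05), and at 169.8 to 731 and 849.6 to 1787 CPM in Tet2-KO mice (1.94 ± 0.33, adjusted p = 0.000269). Gadd45b, a stress sensor gene, was at 0 to 15.6 CPM with vehicle and 22.4 to 299.9 CPM with IL1β in WT mice and at 8.71 to 14.8 and 31.8 to 245 CPM in Tet2-KO mice (3.56 ± 0.66, adjusted p = 0.000621). The third named gene was the nuclear receptor gene Nr4a1 in WT mice, at 0 to 93.5 CPM with vehicle and 12.1 to 184 CPM with IL1β, and Csrnp1 in Tet2-KO mice (1.99 ± 0.43, adjusted p = 0.00312). In Tet2-KO against WT mice with vehicle, 3 rose, Jund (1.16 ± 0.22, adjusted p = 0.00379), Jun (1.13 ± 0.25, adjusted p = 0.0193) and the survival gene Mcl1 (1.00 ± 0.24, adjusted p = 0.0444), and with IL1β none. Some genes of the list had been named in earlier results of these data, so the counts are no independent evidence of direction. In the other classes, the genes of the list that rose with IL1β in WT and in Tet2-KO mice numbered 8 and 8 of 31 tested in MPP-like cells, 7 and 5 of 28 tested in IMP-like cells, 5 and 3 of 30 tested in granulocyte progenitor-like cells, 1 and 1 of 32 tested in monocyte-like cells and 2 and 1 of 25 tested in MEP-like cells, and 1 fell, in granulocyte progenitor-like cells of Tet2-KO mice. Over all genes, 444 and 768 of 9437 rose in MPP-like, 466 and 1035 of 9156 in IMP-like, 1351 and 1908 of 10500 in granulocyte progenitor-like, 210 and 169 of 9140 in monocyte-like and 46 and 36 of 7370 in MEP-like cells, so that the list's share in Tet2-KO granulocyte progenitor-like cells was below that of all genes.

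Of 17 NF-κB and cytokine feedback genes, 8 were tested, of which 4 rose with IL1β in WT and 5 in Tet2-KO mice, with medians of 2.27 and 2.27, and none was called between genotypes. Tnfaip3, which encodes the NF-κB inhibitor A20, was at 0 to 7.79 CPM with vehicle and 87.3 to 315 CPM with IL1β in WT mice, and at 0 to 13.1 and 143 to 481 CPM in Tet2-KO mice. Nfkbia, the gene of the inhibitor IκBα, was at 34.03 to 70.9 and 67.3 to 1365 CPM in WT and 44.4 to 91.4 and 355 to 1583 CPM in Tet2-KO mice. Of 20 messenger RNAs with AU-rich elements that ZFP36 proteins bind, 10 were tested, Ier3 not counted (Myc and Pim1 are also among the immediate early genes), and 4 rose with IL1β in each genotype. Among them were the chemokine Cxcl2, listed at 0 in 3 of 4 WT and 4 of 4 Tet2-KO mice with vehicle and at 7.48 to 225 and 17.7 to 574 CPM with IL1β, and Tnf, at 0 in 3 of 4 mice of each genotype with vehicle and at 4.99 to 120.0 and 15.9 to 176 CPM with IL1β. The cell cycle inhibitor gene Cdkn1a rose by a log2 fold change of 1.90 ± 0.57, adjusted p = 0.0434 in WT and 1.40 ± 0.45, adjusted p = 0.0463 in Tet2-KO mice. Of 16 BTG/TOB and CCR4-NOT genes, 12 were tested, and none was called in WT and 2 rose in Tet2-KO mice in HSC-like cells, the deadenylase genes Cnot6 (0.67 ± 0.21, adjusted p = 0.0422) and Cnot6l (0.59 ± 0.17, adjusted p = 0.0221). The EGR partner list had 1 tested gene in HSC-like cells, which was not called. In the other classes, the genes with AU-rich elements that rose in WT and in Tet2-KO mice numbered 5 and 6 of 14 tested in MPP-like, 3 and 4 of 12 in IMP-like, 3 and 2 of 13 in granulocyte progenitor-like, 1 and 1 of 12 in monocyte-like and 1 and 1 of 6 in MEP-like cells. Ccnd1, a cyclin gene, and Bcl2, which protects cells from death, fell in both genotypes in MPP-like and granulocyte progenitor-like cells and in WT IMP-like cells, and Bcl2 alone in Tet2-KO IMP-like cells. Of the BTG/TOB and CCR4-NOT genes, 3 and 6 of 13 rose in MPP-like, 1 and 5 of 13 in IMP-like, 5 and 6 of 14 in granulocyte progenitor-like, 1 and 0 of 13 in monocyte-like and 0 and 0 of 13 in MEP-like cells, and Cnot11 fell in Tet2-KO granulocyte progenitor-like cells. Of the NF-κB and cytokine feedback genes, 7 and 8 of 14 rose in MPP-like, 6 and 7 of 10 in IMP-like, 5 and 5 of 13 in granulocyte progenitor-like, 2 and 2 of 11 in monocyte-like and 3 and 2 of 7 in MEP-like cells, and Nfkbib fell in Tet2-KO IMP-like cells and in granulocyte progenitor-like cells of both genotypes. The EGR partner Nab1 rose in WT granulocyte progenitor-like cells. The counts over all genes that rose or fell in these classes are given with the immediate early and heat shock genes. Of 10 tested heat shock genes, Hspa1a rose in Tet2-KO against WT mice with IL1β (2.39 ± 0.44, adjusted p = 0.0251), and none was called with IL1β in HSC-like cells, where 0 in WT and 4 in Tet2-KO mice had an unadjusted p under 0.05 and the medians were -0.093 and -0.23. In Tet2-KO against WT mice with vehicle, none was called. With IL1β in the other classes, heat shock genes were called lower in WT and in Tet2-KO mice, 1 and 6 of 11 tested in MPP-like cells, 5 and 6 of 11 in IMP-like cells, 6 and 6 of 11 in granulocyte progenitor-like cells, 0 and 2 of 11 in monocyte-like cells and 0 and 1 of 10 in MEP-like cells, and none was called higher. Over all genes, 551 and 1000 of 9437, 838 and 1287 of 9156, 1701 and 2147 of 10500, 360 and 328 of 9140, and 124 and 81 of 7370 were called lower in these classes.

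The genes whose pattern was most like that of Egr1, Ier2, Btg1 and Zfp36 are given as a description, from Pearson's r of log2(CPM + 1) over the 16 mice of HSC-like cells, which share libraries and depth. For Egr1 they included Fos (0.88) and Rgs1 (0.84). For Ier2 they were Ppp1r15a (0.88), Jun (0.88) and Dusp1 (0.88). For Btg1 and Zfp36, the first was again Ppp1r15a (0.83 and 0.93), which encodes a phosphatase subunit of the stress response, followed by Dazap2 (0.81) and Pik3ip1 (0.75) for Btg1 and by Skil (0.86) and Clk1 (0.83) for Zfp36. Over the medians of the 18 classes, the highest were Txnip (0.93), Junb (0.92) and Avl9 (0.91) for Egr1, Dusp1 (0.92), Kdm6b (0.89) and Mfsd6 (0.89) for Ier2, and Dusp1 (0.91), Nfkbiz (0.90) and Fbxo11 (0.87) for Zfp36. Btg1 stood apart, with the pan-leukocyte gene Ptprc (0.95) between Sp100 (0.98) and Dock2 (0.93). Among the 36 pairs of the genes themselves, r over the 16 mice ran from 0.029 for Egr1 with Zfp36l2 to 0.97 for Btg2 with Zfp36l1. It was next highest for Ier5 with Btg2 (0.92) and Ier5 with Zfp36l1 (0.88). Ier5, Btg2 and Zfp36l1 were listed at 0 in the WT mouse of 12 cells, and without that mouse, left out after its values were seen, these 3 values were 0.81, 0.67 and 0.43 and the highest were 0.90 for Ier2 with Btg2 (0.26 with it) and 0.89 for Btg2 with Zfp36 (0.27 with it). Egr1 with Ier2 (0.82 and 0.83) and Btg1 with Zfp36 (0.86 and 0.86) changed little.

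The GRCm38 positions of the whole genes (GENCODE M21) are as follows. Ier2 lies at chromosome 8, 84661331 to 84662852 (minus strand), Ier3 at chromosome 17, 35821684 to 35822923 (plus strand) and Ier5 at chromosome 1, 155096361 to 155099636 (minus strand). Btg1 lies at chromosome 10, 96617006 to 96622809 (plus strand) and Btg2 at chromosome 1, 134075170 to 134079120 (minus strand). Zfp36 lies at chromosome 7, 28376784 to 28380253 (minus strand), Zfp36l1 at chromosome 12, 80107754 to 80113013 (minus strand) and Zfp36l2 at chromosome 17, 84183931 to 84187947 (minus strand). Egr2 lies at chromosome 10, 67535475 to 67542188 (plus strand), and Egr1 on chromosome 18.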

How the data were processed

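Libraries of lineage-negative bone marrow were made with the Chromium 3′ kit. The authors deposited counts of UMIs per gene, hashtag and cell barcode, made with Cell Ranger 3.1.0 on mm10 by the submitters' processing notes, which also name Seurat 3.2.3. From these counts, cells with at least 750 genes and at most 10% mitochondrial UMIs were kept, and cells were assigned to mice with HTODemux (Seurat 5.3.0). Cells with both hashtags were excluded, and doublets were not otherwise removed. A cell entered the class with the highest mean marker z-score, clipped at 4, of at least 0.5 and with at least 2 markers detected. UMIs were summed per mouse and class, for mice with at least 10 cells, and tested in 6 classes with edgeR 4.0.16 (R 4.3.3) by the quasi-likelihood test with TMM factors and filterByExpr, 4 groups in 1 fit, at an adjusted p of 0.05 over all genes. The procedure was run on simulated counts of HSC-like cells. Those counts held no library effect, so that run does not cover mice that share a library. Groups and pools were taken from the labels. Within a pool, cells of the first hashtag were called the lower-numbered mouse, which only names it.

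The 10 genes and all lists were chosen with earlier results of these data known. The study itself names Egr1, Ier2, Ier5 and Btg2 in an inflammation signature of Tet2-KO HSCs from these samples. All 10 were named in every comparison. For Egr1, Ier2, Btg1 and Zfp36, the 3 genes with the highest correlation were named, except 1 result that is not reported here, and of each list up to 3 called genes per direction with the largest change. The genes that separated the libraries and the levels of Nfkbia were named after their values were seen. Of the listed symbols, Ccn1, Ccn2 and Cnot9 were not found. Alternatives were DESeq2 1.42.0, no filter, each mouse left out, the pool number as a block, the 8 libraries as replicates, clusters in place of the gate, another hashtag rule, stricter cell quality, and cells thinned to 3000 UMIs. Cells under 3000 UMIs were left out of the thinned fit, and the median HSC-like cell had 2535 UMIs. After the data were seen, a mixture rule for hashtags, limma 3.58.1 (voom) with the library as a random effect and a gate of at least 3 markers were added. Figures were drawn with matplotlib 3.10.9.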

Additional observations from a re-analysis of the deposited data

Results flagged for a closer look

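Of the 198 sets of 4 mice (a gene in a class and group), 15 had 1 mouse far from the others by Dixon's test, and chance alone gives about 1 in 20. Of these, 8 were WT mouse 1 with vehicle, in 1 of the libraries whose hashtag calls differed between rules. In that mouse, TMM-scaled CPM were 195 for Ier3 in HSC-like cells (other mice 34.03 to 38.6), 362 for Egr1 in MPP-like cells (152 to 183), and 145 for Egr1 (58.9 to 68.00) and 232 for Ier2 (99.4 to 117) in IMP-like cells. In monocyte-like cells they were 24.5 for Ier3 (5.40 to 8.58) and 122 for Ier5 (48.1 to 60.1), and in MEP-like cells 509 for Ier2 (122 to 172) and 322 for Btg2 (69.5 to 101). All 8 values were high.

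In Tet2-KO mouse 1 with vehicle, MPP-like cells stood out for Egr1 at 1035 CPM (210.3 to 346) and Btg2 at 396 CPM (115 to 142). In Tet2-KO mouse 2 with IL1β, IMP-like cells stood out for Egr1 at 401 CPM (47.4 to 103) and Zfp36l1 at 60.99 CPM (19.3 to 25.4). In WT mice with IL1β, Zfp36l2 was at 2143 CPM in HSC-like cells of mouse 3 (1433 to 1501), and 2 values in MPP-like cells were low, Ier3 in mouse 1 at 110.2 CPM (209 to 224) and Zfp36 in mouse 2 at 238 CPM (368 to 386).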

How the results depend on the processing

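The 38 called changes with IL1β kept their sign in all 1013 values under alternatives and missed the threshold in 134. Of the 1013 values, 606 came from leaving out 1 mouse, and 76 of these missed it. With the 8 libraries as replicates, 18 of the 38 missed the threshold, and with DESeq2 10 of the 38 missed the threshold. Of 676 values of results not called in HSC-like cells, 25 passed it and 12 changed sign. Those were Zfp36l2 in Tet2-KO against WT mice with vehicle (-0.062 with cells thinned to 3000 UMIs, -0.19 with stricter quality, and -0.033 to 0.10 leaving out 1 mouse), and, leaving out 1 mouse, Egr1 with IL1β in WT (-0.38 to 1.06) and Tet2-KO mice (-0.36 to 0.65) and Ier2 in Tet2-KO mice (-0.0063 to 0.78). The share of all genes called was counted only for no filter, the pool number as a block and the 8 libraries. With IL1β and no filter, it was 7.66% in WT MPP-like cells. It was 8.99% in WT and 14.9% in Tet2-KO IMP-like cells, and 4.52% in Tet2-KO monocyte-like cells. With IL1β and the 8 libraries, it was 6.75% in WT IMP-like and 0.602% in WT monocyte-like cells. Counts of genes called with IL1β moved as follows, where the cause was not tested. In HSC-like cells, 6 in WT mice became 3 with the 8 libraries as replicates, 3 with DESeq2 and 2 with stricter quality, and 4 in Tet2-KO mice became 2 with DESeq2 and 7 with the hashtag ratio rule. In MPP-like cells, 5 in WT became 8 with no filter. In IMP-like cells, 5 in WT became 2 with the 8 libraries, 3 with thinned cells and 8 with no filter, and 3 in Tet2-KO became 5 with clusters and 6 with no filter. In granulocyte progenitor-like cells, 4 in WT and 2 in Tet2-KO became 0 with the 8 libraries, and the 2 became 1 with DESeq2, the hashtag mixture rule or voom. In monocyte-like cells, 2 in WT became 1 with the 8 libraries and 4 with thinned cells, and 0 in Tet2-KO became 1 with thinned cells, clusters or the ratio rule, 2 with the mixture rule or stricter quality and 3 with no filter. In MEP-like cells, 1 in WT became 0 with the 8 libraries, thinned cells, voom or stricter quality, 2 with either other hashtag rule and 5 with no filter, and 0 in Tet2-KO became 1 with DESeq2, thinned cells, either hashtag rule or stricter quality and 2 with no filter.

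Between genotypes, 0 with vehicle became 6 in HSC-like, 4 in MPP-like, 3 in IMP-like, 2 in monocyte-like and 1 in MEP-like cells with no filter, and 2 in HSC-like cells (Zfp36 and Ier2) with a gate of 3 markers. With IL1β, 0 became 1 in HSC-like, 4 in MPP-like and 1 in IMP-like cells with no filter. With no filter, all genes called between genotypes with vehicle numbered 76 of 14469 (HSC-like), 47 of 15789 (MPP-like), 44 of 15494 (IMP-like), 64 of 15477 (monocyte-like) and 20 of 14152 (MEP-like), and with IL1β 20, 94 and 27 in the first 3 of these. Leaving out 1 mouse gave, for IL1β in WT and in Tet2-KO mice, 2 to 6 and 3 to 7 (HSC-like), 3 to 6 and 3 to 7 (MPP-like), 2 to 6 and 2 to 6 (IMP-like), 1 to 4 and 1 to 3 (granulocyte progenitor-like), 1 to 2 and 0 to 2 (monocyte-like) and 0 to 2 and 0 to 1 (MEP-like), and between genotypes with vehicle 0 to 1 in HSC-like cells (1 without Tet2-KO mouse 4, WT mouse 1 or WT mouse 3). The largest losses were in MPP-like cells to 3, without WT mouse 3 with IL1β, WT mouse 4 with vehicle or Tet2-KO mouse 4 with vehicle, in IMP-like cells to 2 without WT mouse 3 with vehicle, and in granulocyte progenitor-like cells to 1 without WT mouse 3 with vehicle. Ier3 in HSC-like, MPP-like and IMP-like cells was called in both genotypes without any 1 mouse. The pool numbers were not taken to pair the mice, since the labels name no shared batch and, over all genes, mice of the same pool number had a median correlation of -0.016 to 0.034 over the 6 classes, against -0.028 to 0.0054 for other mice, although the libraries had the same order in every group for some of the genes. The pool number as a replicate block gave 5 genes in place of 3 in Tet2-KO IMP-like cells, 2 in place of 0 in Tet2-KO monocyte-like cells, 2 in place of 1 in WT MEP-like and 2 in place of 0 in Tet2-KO MEP-like cells, and moved no other count by over 1.5 times. Under the block, Btg2 with IL1β in Tet2-KO HSC-like cells passed the threshold (0.80, edgeR adjusted p = 0.0163) and Ier5 in WT IMP-like cells missed it (0.87, adjusted p = 0.0679). Between genotypes with vehicle in HSC-like cells, Ier2 (0.82, edgeR adjusted p = 0.0504) and Egr1 (0.75, adjusted p = 0.0646) came closest under the block and did not pass. Clusters gave no value for HSC-like and MEP-like cells, since no cluster was named so. Depth limits the HSC-like class, with 12 to 158 cells a mouse, and Egr2.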
